A study of Mus musculus with 4 samples.

Results

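Tbx2, Tbx3, Tbx20, Phox2a, Nkx2-9 and Rgs4 are genes of cranial branchial and visceral motor neurons, the motor neurons that serve the muscles of the face, jaw and throat and the autonomic ganglia. These 6 of 21822 gene units were chosen by name: 3 T-box factors, 1 Phox2 factor, 1 NK2 homeodomain factor and 1 regulator of G-protein signalling. All 6 were present in the count tables, and 5 of them passed the filter on low counts and were tested.

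RNA was sequenced from aggregates of 1 line of mouse embryonic stem cells, called iMN-ESCs (inducible motor neuron embryonic stem cells), of C57BL/6 background. The line carries a transgene for Isl1-Lhx3, a fusion of 2 LIM-homeodomain factors of spinal somatic motor neurons, which is turned on by doxycycline (Dox). Every aggregate spent 2 days in stem cell medium with LIF and 2 days in 0.5 µM all-trans retinoic acid, a signal that turns stem cells toward hindbrain and spinal cord. For the last 2 to 3 days, retinoic acid was kept in both groups: the Dox group received 2 µg/mL Dox with it, and the no Dox group did not, with 2 biological duplicates in each. Both groups carry the transgene, and no group received Dox without it, so the effects of the fusion and of the drug cannot be told apart.

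Branchial and visceral motor neurons arise from ventral progenitors that express Nkx2 and Nkx6 homeodomain factors, and the Phox2 factors direct their differentiation and later their cranial ganglion partners. Tbx20 is switched on in their young neurons, where it takes part in cell body migration, and Tbx2 and Tbx3 are T-box repressors that are also found in hindbrain motor nuclei, the heart and the optic vesicle. Isl1 is shared by somatic, branchial and visceral motor neurons, whereas Lhx3 and Mnx1 mark the somatic type.

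Part counts summed to between 24020832 and 53903936 per library, with both Dox libraries deeper than both others. Fusion partners and somatic targets served as a check of the labels: the level of Lhx3, in CPM (counts per 1000000), was 0.404 and 0.286 in the no Dox libraries and 125 and 108 in the others, fusion reads included, and 7 of 8 somatic motor neuron genes rose (edgeR quasi-likelihood test, Benjamini-Hochberg adjusted p under 0.05). Among all 14283 genes tested, 175 rose (1.23%) and 8 fell (0.0560%). In such bulk samples, fewer cells of a type and less RNA per cell cannot be told apart.

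Tbx2 and Tbx3 are close relatives, and a read can only be assigned to 1 of them where their sequences differ. The 3 exons of equal length that hold much of the shared T-box were therefore compared in the GENCODE M21 annotation of GRCm38. They matched at 380 of 492 bases (77.2%), and the longest stretch without a difference was 14 bases. The pair with the highest identity, 81.0% over 147 bases, is Tbx2 exon 3 (chr11:85835795-85835941, + strand) and Tbx3 exon 4 (chr5:119675558-119675704, + strand), with capitals at the bases that differ.
Tbx2 exon 3: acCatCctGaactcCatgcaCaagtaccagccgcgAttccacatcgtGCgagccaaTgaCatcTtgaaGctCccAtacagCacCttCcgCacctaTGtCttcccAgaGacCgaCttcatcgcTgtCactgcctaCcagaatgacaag
Tbx3 exon 4: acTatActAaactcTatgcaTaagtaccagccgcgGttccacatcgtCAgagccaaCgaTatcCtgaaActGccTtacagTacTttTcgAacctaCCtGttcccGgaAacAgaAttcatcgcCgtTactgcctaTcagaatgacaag
Over whole transcripts, 2 of 3596 distinct 31-base words of Tbx2 occurred in another annotated gene, and none of the words of Rgs4 did (0 of 2911). For Tbx3 88 of 5036 words occurred in another gene, 86 of them in the overlapping antisense gene Tbx3os1. The numbers were 72 of 9524 for Tbx20 and 26 of 1213 for Nkx2-9. Whether the counting used strand is not given in the sources used here.

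Tbx2 was the member that rose most. It encodes a T-box repressor that holds progenitors in cycle in several tissues. Its levels were 2.79 and 3.35 CPM in no Dox replicates 1 and 2 and 21.0 and 29.6 CPM in Dox replicates 1 and 2, from 76, 82, 786 and 1618 counts. Both Dox libraries lay far above both others, and the groups did not overlap, as was the case with Dox higher for 18.9% of all genes tested. The log2 fold change was 3.05 (SE 0.24, 95% interval 2.45 to 3.64), an 8.27-fold rise, with an adjusted p of 0.00441 by edgeR's quasi-likelihood test with Benjamini-Hochberg adjustment.

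The rise of Tbx2 was seen along the whole gene. Each of its 7 exons was counted as a separate part, and each had a higher CPM in both Dox libraries than in either of the others. The log2 ratio of summed CPM ran from 2.73 for exon 5 to 3.48 for exon 3, the T-box exon printed above, which had 0.220 and 0.204 CPM in the no Dox pair and 1.98 and 2.76 CPM in the Dox pair. The last and longest exon held 30.3%, 32.9%, 32.8% and 36.5% of the gene's counts in the 4 libraries. No shift in the use of parts was called for Tbx2 (edgeR gene-level F test, adjusted p = 1.0).

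Tbx20 was the other member that rose. It encodes a T-box factor of newly born branchial and visceral motor neurons and of the heart. Its levels were 1.87 and 3.18 CPM in the no Dox libraries and 11.1 and 11.3 CPM in the Dox libraries, from 51, 78, 415 and 615 counts. The groups did not overlap, and the Dox replicates were closer to each other than the no Dox replicates. The log2 fold change was 2.15 (SE 0.29, 95% interval 1.45 to 2.85), a 4.44-fold rise, with an adjusted p of 0.0305 by the same edgeR test.

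Most of the Tbx20 signal came from 1 part, which held 80.4%, 73.1%, 74.9% and 83.1% of its counts. The other 9 parts together gave 0.367 and 0.857 CPM in the no Dox pair and 2.78 and 1.90 CPM in the Dox pair, again without overlap between the groups. Part 10, which had the most counts of the 9 (5, 12, 32 and 31), had a log2 ratio of summed CPM of 1.08. That ratio was 2.21 for the part with most of the signal. For the rest with a ratio it ran from 1.75 to 4.06, on at most 18 counts in a library. Without the largest part, a setting tried once the values were known, the log2 fold change was 1.94 (SE 0.47) and the call ended, with an adjusted p of 0.175 in edgeR. Those values rest on 10, 21, 104 and 104 counts.

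The parts of Tbx20 carry numbers but no positions, and there are 10 of them against 9 exons in the later reference annotation. In Rgs4 and Nkx2-9, also on the minus strand, part 1 held most of the counts, as the long last exon of each would, so parts were taken to be numbered along the chromosome. Read in that way, part 1 of Tbx20 is the last exon of the long form of the transcript, part 2 is the exon just before it, and part 3 is the last exon of a short form. The exon of 110 bases that would be part 2 is found only in the long form (chr9:24727763-24727872, GRCm38, - strand).
Tbx20 exon of the long form: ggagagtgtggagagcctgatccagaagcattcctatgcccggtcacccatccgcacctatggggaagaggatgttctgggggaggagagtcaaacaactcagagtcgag
Part 2 had 1, 0, 14 and 13 counts in the 4 libraries. Part 3 had 0, 0, 0 and 1, which was 0 of 325 counts over parts 1 to 3 in Dox replicate 1 and 1 of 525 in Dox replicate 2, with exact Clopper-Pearson upper limits of 1.13% and 1.06%. In the no Dox libraries the 0 counts of 42 and of 57 allow shares of up to 8.41% and 6.27%, so a shift between the forms was not detectable at this depth. The intervals cover counting error only and treat every count as a separate read. Part 1 alone had 311 of the 325 counts in Dox replicate 1 and 511 of the 525 in Dox replicate 2. These limits are for shares of counts, not of transcripts, and do not bound the share of the short form among transcripts.

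For 4 of the 6 members (Tbx20, Phox2a, Nkx2-9 and Rgs4) the RefSeq promoter table of GRCm38.p6 held a window from 250 bases before to 50 bases after the start. The window of Tbx20, the called member among them, is shown because the induced fusion contains homeodomains (chr9:24774254-24774553, - strand).
Tbx20 promoter: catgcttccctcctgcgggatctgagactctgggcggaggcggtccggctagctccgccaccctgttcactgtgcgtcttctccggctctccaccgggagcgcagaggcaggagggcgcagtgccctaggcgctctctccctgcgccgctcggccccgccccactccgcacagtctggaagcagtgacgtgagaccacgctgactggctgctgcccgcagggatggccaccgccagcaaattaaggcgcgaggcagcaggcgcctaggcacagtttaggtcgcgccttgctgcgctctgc
It was searched on both strands for the homeodomain core TAATTA, present in 5.29% of 32851 promoter windows of this length, the T-box core GGTGTGA (3.98%) and the NK2 core AAGTG (46.4%). None of the 3 was found, so no letters are in capitals. The windows of Phox2a and Nkx2-9 each held 1 match to AAGTG, and that of Rgs4 held no match to any of the 3.

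**Figure D1:**
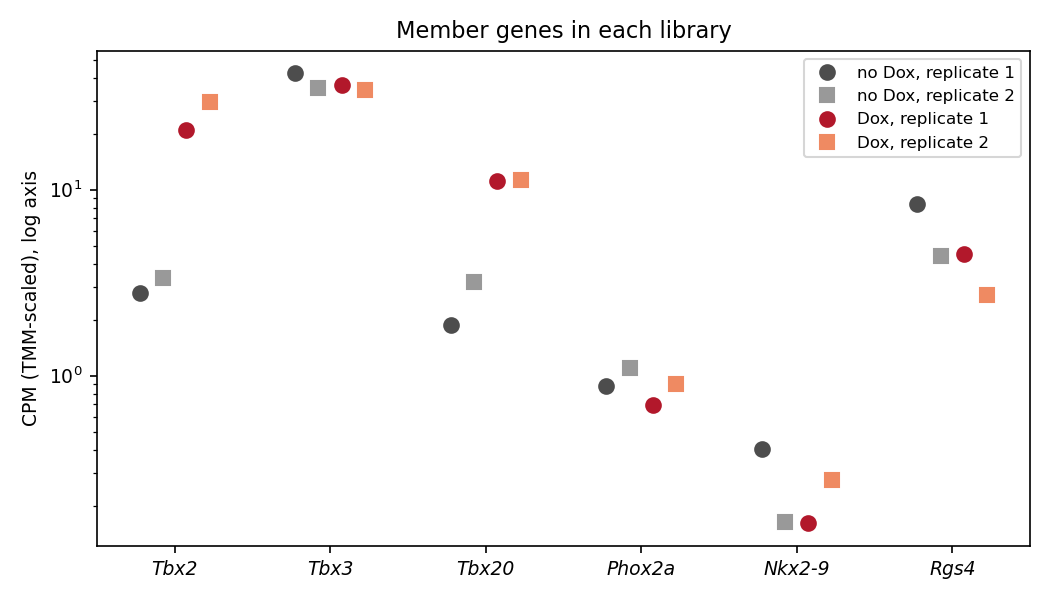
Level of each member gene in each library, in TMM-scaled CPM on a log axis, with grey symbols for the 2 no Dox libraries and red or orange symbols for the 2 Dox libraries. Tbx2 and Tbx20 show both Dox libraries above both others, and the groups overlap for Tbx3, Phox2a, Nkx2-9 and Rgs4.

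Tbx3 had the highest level per exon length of the members without Dox and was not called. It encodes the closest relative of Tbx2, a T-box repressor that also keeps stem cells from differentiating. Its levels were 42.2 and 35.1 CPM in the no Dox pair and 36.7 and 34.3 CPM in the Dox pair, from 860 to 1874 counts per library. The groups overlapped, with Dox replicate 1 between the 2 no Dox libraries. The log2 fold change was -0.12 (SE 0.14, 95% interval -0.47 to 0.22, edgeR adjusted p = 0.878), and without no Dox replicate 1 it was 0.02.

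Tbx3 has an alternative coding exon of 60 bases, which lengthens the T-box in the longer of its protein forms. It was deposited as a part of its own, so its share could be read in every library (exon 3, chr5:119675243-119675302, GRCm38, + strand).
Tbx3 alternative exon: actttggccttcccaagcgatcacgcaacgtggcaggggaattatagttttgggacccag
It held 21 of the 105 counts of this exon and the next in no Dox replicate 1, or 20% (exact 95% interval 12.8 to 28.9). The share was 15.8% (7.48 to 27.9) in no Dox replicate 2, 20% (13.4 to 28.1) in Dox replicate 1 and 18.4% (12.5 to 25.6) in Dox replicate 2. The 4 intervals overlapped, and the relative log2 change of this part against the rest of Tbx3 was 0.10 (adjusted p = 1.0 by edgeR's test of single parts). This is a share of counts over exons of different length, not of transcripts. A read across both exons can be counted in each, while the exact intervals treat every count as a separate read.

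Phox2a encodes the paired-like homeodomain factor that is needed for the oculomotor and trochlear nuclei and for noradrenergic neurons. Its levels were 0.881 and 1.10 CPM in the no Dox pair and 0.696 and 0.897 CPM in the Dox pair, from 24, 27, 26 and 49 counts. The groups overlapped. The log2 fold change was -0.30 (SE 0.36, 95% interval -1.17 to 0.57, edgeR adjusted p = 0.886), an interval that still holds a fall of more than 1 log2 unit.

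Most of the Phox2a counts came from its last and longest exon, which overlaps another gene in part. This exon, with 1019 of 1609 bases, meets the convergent gene Inppl1 by 95 bases in the annotation. It held 58.3%, 92.6%, 73.1% and 77.6% of the gene's counts. Per kb, its level lay below that of the second exon in all libraries but no Dox replicate 2. It lay above that of the first exon in every library. All 65 of the 31-base words of Phox2a that occur elsewhere (of 1579) are in Inppl1, which stood at 292, 244, 305 and 298 CPM. The first and second exons, which do not overlap it, had 10, 2, 7 and 11 counts (0.367, 0.0816, 0.187 and 0.201 CPM). How far Inppl1 reads enter the Phox2a level was not tested.

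Nkx2-9 encodes an NK2 homeodomain factor of the ventral progenitors beside the floor plate, from which spinal accessory and other branchial motor neurons arise. It had 11, 4, 6 and 15 counts (0.404, 0.163, 0.161 and 0.275 CPM) and did not pass the filter on low counts. The groups overlapped. The ratio of summed counts over summed TMM-scaled library sizes, Dox to no Dox, was 0.787. Its exact interval of 0.387 to 1.64 covers counting error only and treats every count as a separate read. Without the filter the log2 fold change was -0.34 (SE 0.71, edgeR adjusted p = 0.957). At this depth a moderate change in Nkx2-9, such as one within the exact interval, was not detectable.

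Rgs4 is the member that is no transcription factor: it speeds the shut-off of G-protein signals and is strongly expressed by young cranial and sympathetic neurons. Its levels were 8.37 and 4.41 CPM in the no Dox pair and 4.52 and 2.71 CPM in the Dox pair, from 228, 108, 169 and 148 counts. The groups overlapped at their edges, since no Dox replicate 2 lay just under Dox replicate 1. The log2 fold change was -0.83 (SE 0.40, 95% interval -1.80 to 0.14, edgeR adjusted p = 0.573). With 1 library left out it ran from -1.24 (Dox replicate 1 left out) to -0.29 (no Dox replicate 1 left out). It was -1.22 with no Dox replicate 2 and -0.48 with Dox replicate 2 left out, and none of the 4 values was called.

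Rgs4 has 5 exons, and its last exon, with 2444 of 2941 bases, held 67.5%, 78.7%, 72.2% and 75.0% of its counts. Only the last pair of exons had enough counts for the test of part use, which made no call (adjusted p = 1.0, edgeR gene-level F test). The same holds for the other members tested for part use: 7 parts of Tbx2, 8 of Tbx3 and 2 of Tbx20 gave adjusted p = 1.0. Across all 11556 genes so tested, 4 were called by the F test (0.0346%) and 2 by the Simes test (0.0173%), as were 0.00548% of all single parts, which leaves little to read from the absence of a call.

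**Figure D2:**
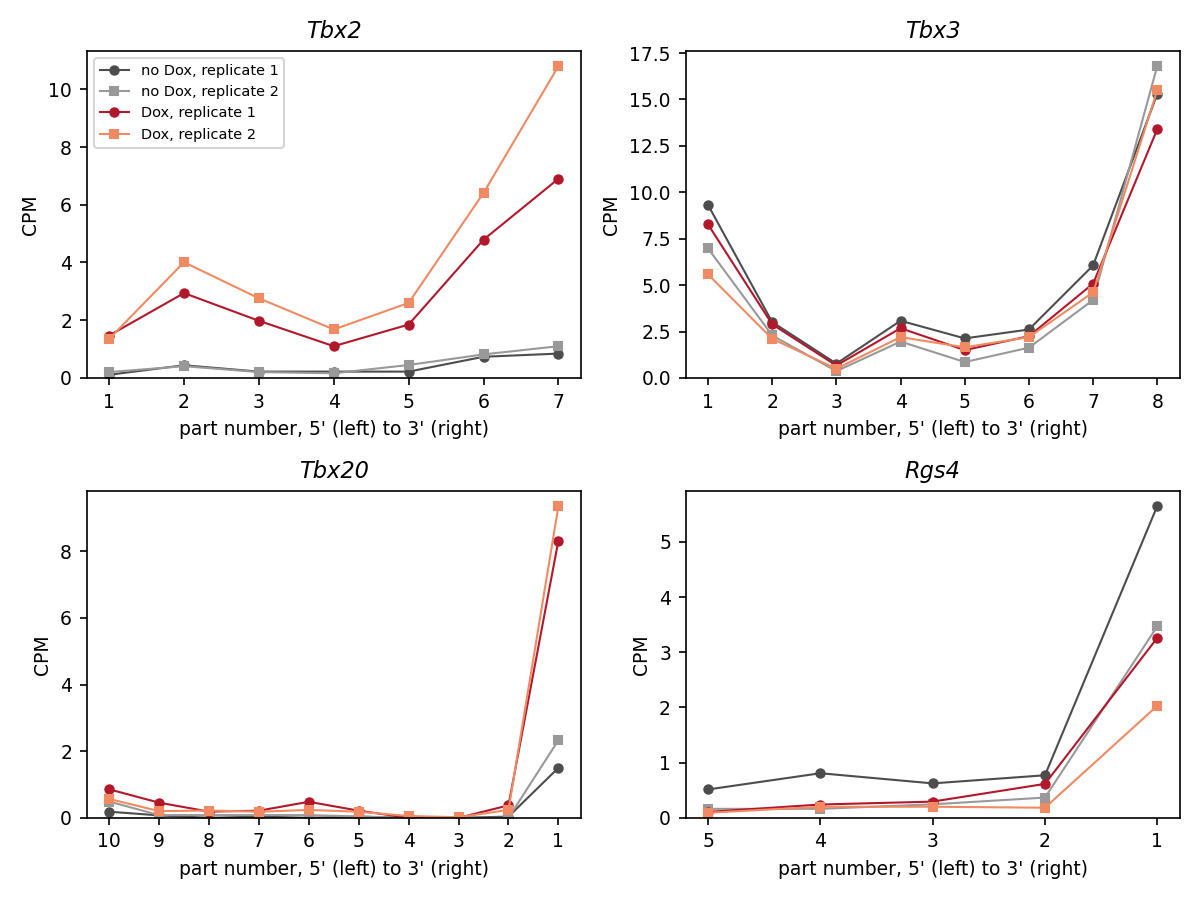
TMM-scaled CPM (vertical axis) of each deposited part of Tbx2, Tbx3, Tbx20 and Rgs4, drawn from the 5′ end at left to the 3′ end at right, with 1 line per library. The Dox lines of Tbx2 lie above the others at all 7 parts, while Tbx20 and Rgs4 have most of their signal in part 1, taken for Tbx20 to be the last exon.

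Taken as a group, 2 of the 5 tested members rose and none fell at an adjusted p under 0.05 in edgeR, against 1.23% and 0.0560% of all genes (1.28% in either direction). The same 2 rises and no fall were counted at an unadjusted p under 0.05 (all genes: 6.26% higher and 4.02% lower), with DESeq2 (2.26% and 0.640%) and with limma-voom (1.18% and 0.0840%). Groups did not overlap for 2 of the 5, both with Dox higher, beside 38.8% of all genes, 18.9% with Dox higher and 19.9% with Dox lower. The median log2 fold change of the 5 was -0.12, beside -0.01 for all genes tested. The members were picked with these rises known, so the counts describe them and are no separate evidence.

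Levels of different genes were set side by side only per length, as CPM per kb of annotated exon. Without Dox, Tbx3 led with 8.43 and 7.0 CPM per kb and Rgs4 followed with 2.85 and 1.5. Tbx2 came next with 0.783 and 0.940, then Phox2a with 0.548 and 0.685, and the libraries of these neighbours did not overlap. Tbx20 (0.272 and 0.462) and Nkx2-9 (0.319 and 0.129) were lowest and overlapped each other.

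With Dox, Tbx2 reached 5.90 and 8.32 CPM per kb and overlapped Tbx3, which stood at 7.32 and 6.84. The per-length ratio of Tbx2 to Tbx3 was 0.0929 and 0.134 in the no Dox pair and 0.807 and 1.21 in the Dox pair. Tbx20 rose to 1.61 and 1.63 and passed Phox2a (0.432 and 0.557). It also lay above Rgs4 (1.54 and 0.921), but with the longer of the annotated exon lengths it was at 1.16 and 1.18, inside the range of Rgs4. Nkx2-9 remained lowest at 0.127 and 0.217 CPM per kb.

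The remaining T-box family was read next, since its members bind related sites. Of 14 other T-box genes 8 were tested, and none was called (edgeR, adjusted p under 0.05). At an unadjusted p under 0.05, 0 rose and 1 fell, and neither DESeq2 nor limma-voom called any. Their median log2 fold change was -0.21. Mga, a T-box and E-box factor found in most cells, stood at 304 and 226 CPM in the no Dox pair and 270 and 241 CPM in the Dox pair, and Tbx18, a factor of heart and urinary tract mesenchyme, at 5.10, 7.47, 4.66 and 7.78 CPM. The unadjusted fall was Tbx5, the heart and forelimb factor next to Tbx3 on the chromosome, with 0.991 and 1.39 CPM in the no Dox pair and 0.562 and 0.641 CPM in the Dox pair (fitted difference -0.97, SE 0.37, adjusted p = 0.434).

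**Figure D3:**
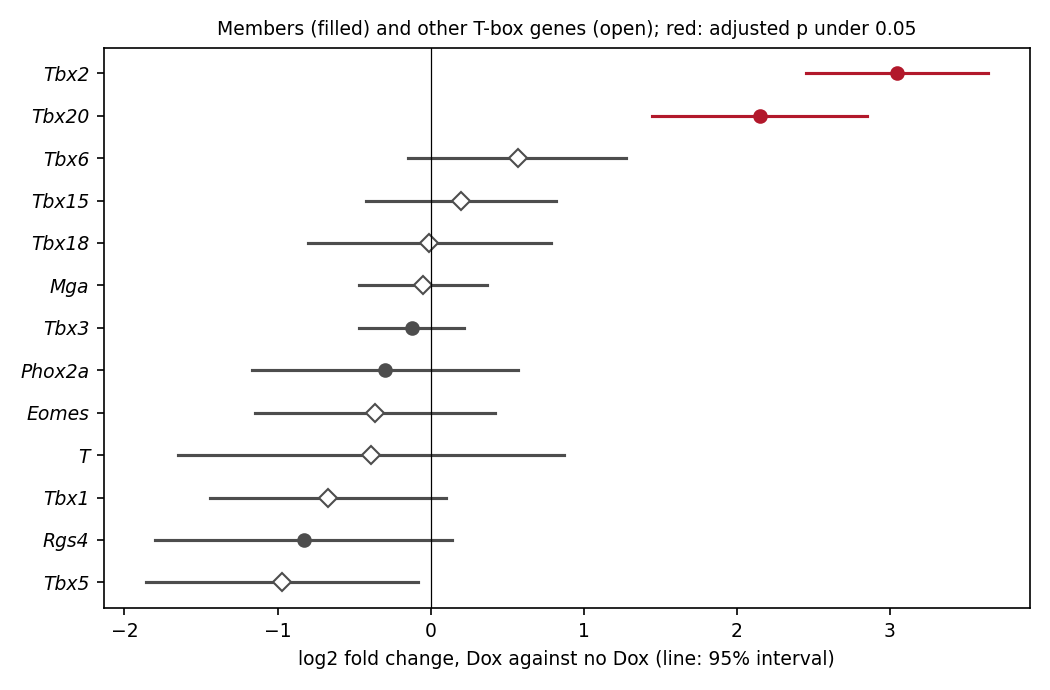
Log2 fold change, Dox against no Dox, with 95% interval, for the 5 tested members (filled circles) and the 8 other tested T-box genes (open diamonds). Red marks an adjusted p under 0.05, reached by Tbx2 and Tbx20, and the interval of each of the other members includes 0.

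Genes on either side of the members were compared to see how far a rise extended. Bcas3, which precedes Tbx2, stood at 34.1, 26.4, 34.0 and 34.8 CPM (log2 fold change 0.19, adjusted p = 0.825), and Tbx4, which follows it, had 4, 1, 3 and 1 counts. Herpud2, which follows Tbx20, changed by -0.11 on the log2 scale (adjusted p = 0.925), and Dpy19l2, which precedes it, had 0, 0, 1 and 5 counts. Over the 9 tested genes that neighbour or overlap a member, the adjusted p in edgeR ran from 0.434 (Tbx5) to 0.998 (Folr2, beside Phox2a).

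The other genes of the branchial and visceral programme were a list of 19, with progenitor factors, hindbrain Hox genes, noradrenergic genes and Isl1. Of the 17 tested, 2 rose and none fell in edgeR, with the same counts at an unadjusted p under 0.05, in DESeq2 and in limma-voom. The median log2 fold change was 0.12. Nkx6-2, a homeodomain factor of ventral progenitors, had 2.57 and 3.67 CPM in the no Dox libraries against 25.9 and 32.6 in the others, a log2 rise of 3.23 (SE 0.24, adjusted p = 0.00389). Isl1, a LIM-homeodomain factor of all motor neuron types, had 3.08 and 5.84 CPM against 104 and 82.4, a log2 rise of 4.39 (SE 0.31, adjusted p = 0.00351). The fusion holds Isl1 sequence, so its reads and those of the gene itself cannot be told apart here.

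The families of Nkx2-9 and Rgs4 were read in the same way. Of 6 other NK2 genes 1 was tested, the heart factor Nkx2-5 (log2 fold change 0.65, adjusted p = 0.832 in edgeR, and not called by DESeq2 or limma-voom), and the others had at most 0.294 CPM in any library. Of 23 other RGS genes and partners 18 were tested, with no call in either direction (median log2 fold change -0.10). At an unadjusted p under 0.05, 2 rose and none fell, DESeq2 called 1 rise and limma-voom none. Rgs12 and Rgs9, named for their mean CPM, stood at 68.0, 58.7, 71.3 and 58.5 CPM and at 44.5, 27.4, 41.0 and 26.1 CPM. The smallest p was that of Rgs7, at 1.73 and 1.39 CPM in the no Dox pair and 4.66 and 6.33 CPM in the Dox pair (1.82, SE 0.29, adjusted p = 0.0527), a gene named after its values were seen. Rgs5, which precedes Rgs4 on the chromosome and marks pericytes, stood at 0.404 and 0.367 CPM in the no Dox pair and 0.722 and 0.696 CPM in the Dox pair (0.87, adjusted p = 0.547).

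For each member with a mean of at least 5 CPM, the genes of most similar profile were taken from 10551 candidates by the root mean square difference of centred log2 CPM over the 4 libraries. For Tbx2 they were Nkx6-2 (0.148), Ccdc68 (0.191) and Rai2 (0.223), and all 3 rose, Ccdc68 by 2.70 and Rai2 by 3.21 on the log2 scale (adjusted p = 0.0140 and 0.00145). For Tbx20 they were the axon guidance ligand Sema3a (0.117), Lhfp (0.131) and the synaptic cadherin Clstn2 (0.155), with log2 fold changes of 2.05, 2.02 and 1.94 (adjusted p = 0.00743, 0.0181 and 0.0191). Those nearest to Tbx3 were Ppme1, Igf2bp1 and Tpp2, and those nearest to Rgs4 were Cdh4, Adgrv1 and Wnt11, none of them called. Differences were smaller there (at most 0.0066 for Tbx3 and 0.0464 for Rgs4). These genes were chosen for their likeness to a member in the same 4 libraries. Their fold changes and calls largely follow from that choice and are no separate evidence. Over 4 libraries such likeness is a description.

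**Figure D4:**
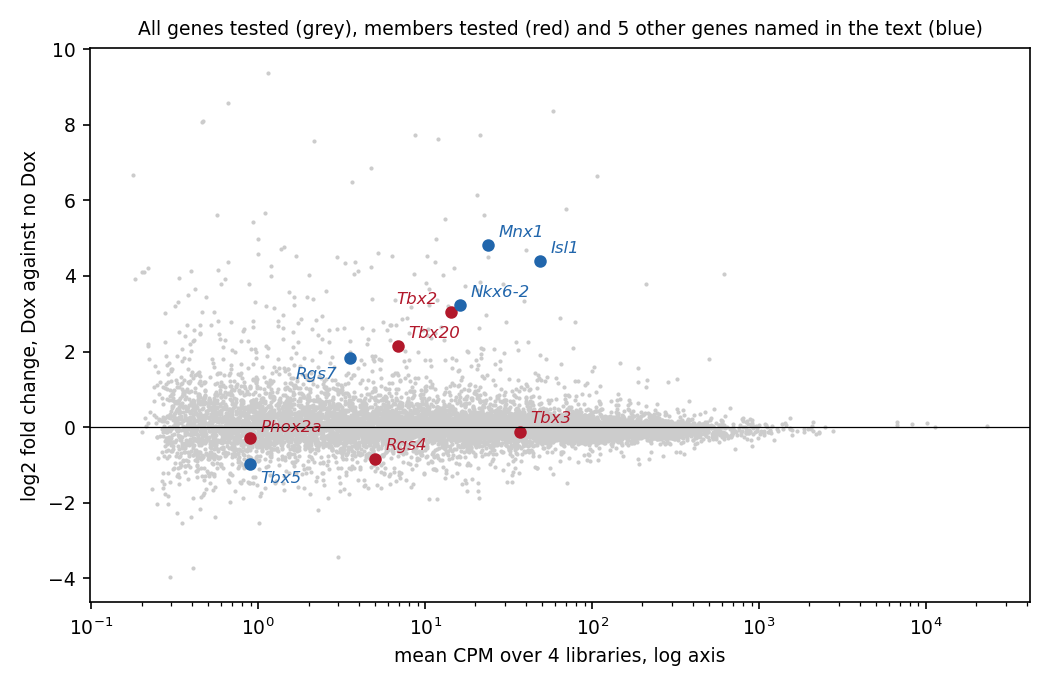
Log2 fold change, Dox against no Dox, against mean CPM over the 4 libraries (log axis) for all 14283 genes tested (grey), the 5 tested members (red) and 5 other genes named in the text (blue). Tbx2 lies beside Nkx6-2 and below Isl1 and Mnx1, and Tbx3, Phox2a and Rgs4 lie within the band of genes not called.

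The members are used by other tissues too, so markers of those tissues were read in the same libraries. Of 12 heart genes 9 were tested and none was called (edgeR; none at an unadjusted p under 0.05, in DESeq2 or in limma-voom). Their summed level was 577 and 608 CPM in the no Dox pair and 571 and 664 CPM in the Dox pair, nearly all of it Gata4, which endoderm shares. Gata4, a factor of both tissues, was at 560, 591, 553 and 644 CPM, and Myh7, a myosin heavy chain of heart and slow skeletal muscle, was at 8.96, 6.49, 6.90 and 6.63. The median log2 fold change of the heart genes tested was 0.38, beside -0.01 for all genes. Among other heart muscle genes, named here after their values were seen, Myh6 was at 0.514, 0.735, 0.321 and 0.513 CPM and Tnnt2 at 0, 0.122, 0 and 0.622. Tnni1, also named in this way, was higher in both Dox libraries, at 0.330, 0.857, 1.07 and 1.10 CPM (log2 fold change 0.88, edgeR adjusted p = 0.657). Endoderm markers, led by Dab2 (706, 809, 647 and 745 CPM) and Gata4, summed to 1787, 2027, 1707 and 2023 CPM, with no call among 8 tested and none at an unadjusted p under 0.05, in DESeq2 or in limma-voom. Of 7 optic vesicle and pigment epithelium genes 3 were tested and none was called (none at an unadjusted p under 0.05 or by either other tool), with summed levels of 15.5 to 18.3 CPM, most of it Mitf (12.8, 14.3, 12.1 and 14.1) and Pmel (3.19, 3.39, 2.78 and 3.44).

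Some markers of mesenchyme and of other cells differed between the groups beside Tbx2 and Tbx20. Of 8 pericyte and mesenchyme markers 2 rose, the fibrillar collagens Col1a1 (log2 fold change 2.00, adjusted p = 0.0175) and Col3a1 (2.24, adjusted p = 0.00400). Before adjustment, 3 passed p under 0.05 upward and 1 downward, DESeq2 called 3 higher and none lower, and limma-voom called 2 higher and none lower. The one downward was the smooth muscle actin Acta2, at 1.73 and 0.612 CPM in the no Dox libraries against 0.482 and 0.421 (-1.39, adjusted p = 0.469). The summed level of the list was 73.0 and 70.8 CPM in the no Dox pair and 168 and 146 CPM in the Dox pair. Its median log2 fold change was 0.55. Pdgfrb, a receptor among these markers, was at 9.47, 10.1, 11.6 and 10.6 CPM. Cspg4 was at 0.661, 0.857, 1.15 and 1.19 CPM (0.63, edgeR adjusted p = 0.651). Twist1 was at 11.7, 16.6, 24.4 and 23.3 CPM (0.76, edgeR adjusted p = 0.215). Acta2, Pdgfrb, Cspg4 and Twist1 are named after their values were seen, as are Foxd3 and Sox10 below. Of 5 endothelial genes 1 rose, the transcription factor Erg (4.26, adjusted p = 0.0197), with sums of 26.7, 45.1, 33.2 and 54.9 CPM. Before adjustment, 2 passed p under 0.05 upward and none downward, and DESeq2 and limma-voom each called 1 higher and none lower. Cdh5, the endothelial cadherin, was at 10.9, 24.5, 12.0 and 24.3 CPM, and the angiopoietin receptor Tek at 13.0, 17.7, 15.5 and 23.4. Of 7 neural crest genes 6 were tested, and 1 rose, Sox9 (1.07, adjusted p = 0.0449), with sums of 142, 125, 115 and 116 CPM. Before adjustment, 1 passed p under 0.05 upward and 2 downward, DESeq2 called 1 in each direction, and limma-voom called 1 higher and none lower. Tfap2b, an AP-2 factor of neural crest, had 85.7 and 67.1 CPM in the no Dox libraries against 40.4 and 31.7 in the others (-1.08, SE 0.18, edgeR adjusted p = 0.0614, DESeq2 adjusted p = 4.66e-05). Foxd3 had 1.21 and 1.43 CPM against 0.428 and 0.513 (-1.47, edgeR adjusted p = 0.173), and Sox10 had at most 0.161 CPM. The part of these cells in the values of Tbx2 and Tbx20 was not tested.

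Somatic motor neuron genes had the largest median log2 fold change of the lists read, 6.18 over 8 genes. Their summed level was 8.04 and 9.92 CPM against 352 and 317. The median and this sum both include Lhx3 (125 and 108 CPM with Dox) and Isl1 (104 and 82.4). For these, reads of the fusion and of the genes themselves cannot be told apart. Beside Lhx3 (8.37), the smallest p belonged to the acetylcholine genes Slc18a3 (5.51), Chat (7.73) and Slc5a7 (7.63), each with an adjusted p of at most 0.0016. Mnx1, which marks somatic motor neurons, had 2.31 and 0.939 CPM against 48.5 and 43.9, a log2 rise of 4.81 (adjusted p = 0.00393) and is named after its values were seen. The log2 fold changes of Tbx2 and Tbx20 were smaller than those of these 5 genes. They were larger than that of Isl2, the 1 gene of the list not called (0.90, edgeR adjusted p = 0.350). Isl2 is also named after its values were seen.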

How the data were processed

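Illumina TruSeq libraries, per the labels' protocols, came from 2 no Dox and 2 Dox samples, grouped by title. TopHat and mm9 are named without versions in the submitters' processing notes. How reads were counted, and whether by strand, is not given in the sources used here. Per table, the authors deposited whole-number counts for 208825 parts of genes, where a read across several parts can be counted more than once. The 4 rows per table that name no gene were left out: reads outside genes made up 13.6% to 15.8% of counts and ambiguous reads 0.41% to 0.52%.

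Parts were summed to 21822 gene units. Of 27601 RefSeq identifiers 97.1% matched the gene tables of GRCm38.p6 and GENCODE M21. These belong to a later build than mm9, so coordinates are given only for sequences printed from them. Tests used edgeR 4.0.16 in R 4.3.3 (robust quasi-likelihood F test, TMM scaling, default filter on low counts, Benjamini-Hochberg adjustment at 0.05, diffSpliceDGE for parts) and were checked on simulated data. CPM values are scaled by TMM. Alternatives were DESeq2 1.42.0, voom in limma 3.58.1, other scalings and filters, the largest part alone, a replicate block, each library left out and, chosen after seeing the data, members without their largest part. Replicate libraries were not 1 library deposited again: their chi-square per degree of freedom was 31.7 (no Dox) and 28.8 (Dox). With 2 libraries a group, p-values measure the spread between these samples only.

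The members, lists and rules were chosen with earlier results of these data known. Named genes are the members and their neighbours, the genes of nearest profile and, per list, up to 4 called genes of smallest p or, with fewer than 2 calls, also up to 2 of largest mean CPM. Exceptions are named as such. Some genes of the lists are not reported here by name.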

Additional observations from a re-analysis of the deposited data

How the results depend on the processing

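Tbx2 kept its direction and call under every alternative run (log2 fold change 2.80 to 3.27 with 1 library left out), and Tbx20 under all (1.82 to 2.57 with 1 left out) but that without its largest part (1.94, adjusted p = 0.175), where 1 member rose. Tbx3 ran from -0.25 to 0.02 with 1 library left out and changed sign without no Dox replicate 1 (0.02, adjusted p = 0.974). Phox2a ran from -0.49 to -0.14 and Rgs4 from -1.24 to -0.29. All genes higher (175) and lower (8) numbered 398 and 113 with DESeq2, 295 and 46 with no filter, 104 and 4 at a mean of at least 5 CPM, and 276 to 283 and 22 to 124 with 1 library left out. Genes lower numbered 16 with library totals as the only scaling and 14 with the largest part as the count. Among list genes that are no members, 12 rose and 0 fell. DESeq2 called 1 fall, and leaving out 1 library gave 1 to 2. Same-numbered replicates deviated together (correlation 0.521), but the labels do not say what a number shares. With a replicate block, 1047 genes rose and 869 fell, among them 1 member, Rgs4 (-0.80, adjusted p = 0.00642), and 19 rises and 8 falls among list genes. Part use of members kept an adjusted p of 1.0 in every setting run. Phox2a and Rgs4 gave no value at a mean of at least 5 CPM, and Phox2a none without its largest part. The cause of these changes was not tested. Depth limits Nkx2-9 (4 to 15 counts), Phox2a and the short form of Tbx20.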
